A study of Mus musculus with 6 samples.

Results

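The genes described here are 44 glycolysis enzymes, oxygen sensors and hypoxia-induced genes, out of 21158 named genes measured on the arrays. They were taken by name from a list that was drawn up with earlier results of these data known, though its rule names the genes without a measured value. Of them, 25 cover the route from glucose uptake to lactate, 5 sense oxygen, and 14 are other genes that low oxygen induces. Each was read from the transcript clusters whose exon-level probe sets carry its symbol, and all 44 had at least 1 such cluster. Where a gene had several, the cluster with the highest mean was used, so this choice did rest on measured values. The RNA came from B/CMBA.ov cells, a line from the ovary of BALB/c mice, which in both groups were transfected by lipid with a synthetic small RNA at 20 nM and harvested after 48 h. The mimic group (3 arrays) received a mimic of mmu-miR-15a-3p and the control group (3 arrays) a negative control mimic. No untransfected cells are among these arrays, and the series has a single cell line. Nothing in the labels says that the replicates were separate cultures, so p-values measure the spread between arrays, which may be technical, and the small number of arrays limits the precision.

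Glycolysis splits glucose into pyruvate in the cytosol, and cells short of oxygen turn that pyruvate into lactate. Oxygen acts on this route through hypoxia-inducible factor, whose alpha subunits are marked by prolyl hydroxylases when oxygen is present and then destroyed through the von Hippel-Lindau protein. When oxygen is low the factor accumulates, binds a short core motif near its targets and raises the transcription of glucose transporters, most glycolytic enzymes and genes of vessel growth, mitophagy and collagen processing. The labels name no low-oxygen arm for these cells.

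The small RNA that sets the groups apart is shown first, because it is the only agent that differs between them. The RefSeq table (GRCm38.p6) places the mature sequence on the minus strand at chr14:61632038-61632059. Capitals mark its seed, bases 2 to 8, the stretch by which a microRNA pairs with its targets.
mmu-miR-15a-3p: cAGGCCAUacugugcugccuca
Transcript sequences were not used here, so no match of this seed in the members was looked for.

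In cells given the miR-15a-3p mimic, part of the glycolytic route and a few hypoxia targets were lower, while other genes of both kinds did not pass the test. Of the 44 members, 15 fell and 1 rose at a limma adjusted p under 0.05, and 28 did not pass. The background was 5.64% of all genes tested falling and 6.08% rising. Most members were bright, with 40 of 44 in the brighter part of the array (10579 genes whose mean reached the median over genes), where 9.79% fell and 9.43% rose. The share of members that fell, 34.1%, was above both figures. The 3 mimic arrays all lay below the 3 control arrays in 21 members (47.7%), against 13.2% of all genes and 20.3% of those in the brighter part. The median log2 fold change (mimic minus control) was -0.15 over the members and 0.01 over all genes tested. Falls spanned a log2 fold change from -0.26 (Pkm2) to -1.52 (Ak4), and the single rise was that of Ddit4 (0.31).

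**Figure D1:**
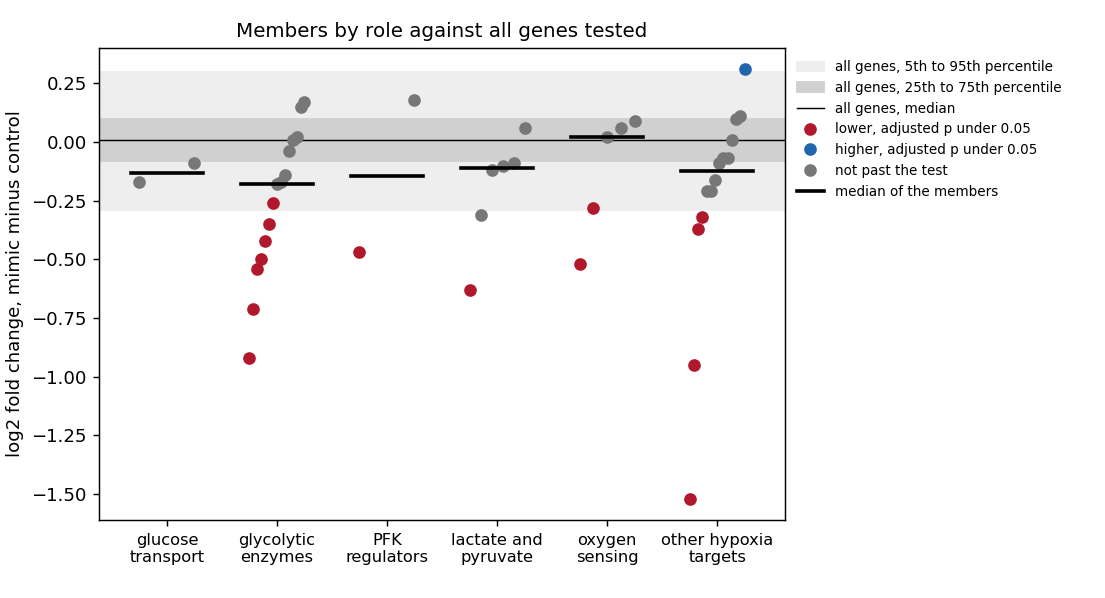
Fitted log2 fold change (mimic minus control, vertical axis) of each of the 44 members, grouped by role on the horizontal axis. PFK regulators are Pfkfb3 and Pfkfb4, thick bars are medians of a role, and grey bands show where the fold changes of all 21158 genes lie. The red points are the 15 members that fell and the blue point is Ddit4, the member that rose.

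Glucose entry and the hexokinase step did not pass the test. Slc2a1, the ubiquitous glucose transporter, read 10.88, 10.74 and 10.75 on the mimic arrays and 10.93, 10.98 and 10.98 on the control arrays, as log2 values. The groups did not overlap, but the log2 fold change of -0.17 ± 0.06 (SE) had a limma adjusted p of 0.13. Slc2a3, a high-affinity transporter, had a log2 fold change of -0.09 (adjusted p = 0.50). Hexokinases trap glucose in the cell by phosphorylation. Hk1 had a log2 fold change of 0.01 (95% interval -0.15 to 0.16) and Hk2, the inducible form, of 0.17 (-0.01 to 0.34). Gpi1, the isomerase of the next step, went from a mean log2 value of 12.07 ± 0.0426 to 11.88 ± 0.0474 (SD, n = 3) with an adjusted p of 0.093.

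At the phosphofructokinase step, which commits sugar to glycolysis, 1 of 3 subunit genes fell. Pfkl, the liver-type subunit, read 9.46, 9.24 and 9.31 on the mimic arrays and 9.73, 9.94 and 9.97 on the control arrays. Every mimic array was below every control array, a log2 fold change of -0.54 ± 0.09 (SE) with an adjusted p of 0.0034. The muscle-type Pfkm gave 9.79, 9.58 and 9.63 against 9.52, 9.73 and 9.69, which overlap (log2 fold change 0.02). For the platelet-type Pfkp the values were 10.95, 10.82 and 10.83 against 10.63, 10.76 and 10.76, with the mimic arrays the higher ones but an adjusted p of 0.20. The enzymes encoded by Pfkfb3 and Pfkfb4 make and break the fructose bisphosphate that activates phosphofructokinase. Pfkfb3 read 8.43, 8.28 and 8.42 with the mimic and 8.87, 8.84 and 8.83 with the control and fell by 0.47 on the log2 scale (adjusted p = 0.0018). Pfkfb4 was dim, below the median over genes, and its groups overlapped (log2 fold change 0.18, adjusted p = 0.33).

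Aldolase cleaves the hexose into trioses. Aldoc, the brain-type aldolase, read 9.09, 8.76 and 9.01 with the mimic and 9.64, 9.63 and 9.71 with the control, a log2 fold change of -0.71 ± 0.09 (SE; adjusted p = 0.00093). Aldoa, the ubiquitous form, gave 12.79, 12.64 and 12.63 against 12.84, 12.86 and 12.88. Both genes had groups that did not overlap, but the shift of Aldoa was -0.17 and its adjusted p 0.15. Tpi1, the isomerase that interconverts the trioses, had the largest fall of the 25 glucose-to-lactate members. Its log2 values were 11.05, 10.97 and 10.97 with the mimic and 11.89, 11.95 and 11.92 with the control (transcript cluster 10547830). The ratio of mimic to control was 0.527, a log2 fold change of -0.92 ± 0.06 (SE; adjusted p = 4.9e-05).

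The payoff steps that follow were mostly lower too. Gapdh, which oxidises glyceraldehyde phosphate and is often used as a reference gene, read 13.33, 13.35 and 13.45 with the mimic and 13.55, 13.48 and 13.54 with the control. These groups did not overlap, and the log2 fold change of -0.14 did not pass (adjusted p = 0.20). Pgk1, the kinase that makes the first ATP of the payoff phase, read 12.21, 12.20 and 12.17 against 12.69, 12.68 and 12.70. Its replicates were tight, and its log2 fold change of -0.50 ± 0.06 (SE) had an adjusted p of 0.00067. Pgam1, a mutase, read 10.59, 10.47 and 10.50 against 10.94, 10.98 and 10.91, a log2 fold change of -0.42 (adjusted p = 0.0027). Eno1, the ubiquitous enolase, read 11.74, 11.65 and 11.70 against 11.99, 12.07 and 12.06, a log2 fold change of -0.35 (adjusted p = 0.0064). For all of these the mimic arrays lay wholly below the control arrays. The neuronal enolase gene Eno2 gave 8.79, 8.51 and 8.66 against 8.60, 8.75 and 8.74, which overlap (log2 fold change -0.04). Pyruvate kinase, whose gene the deposited table calls Pkm2 and RefSeq calls Pkm, read 11.38, 11.29 and 11.28 against 11.56, 11.56 and 11.60. Its log2 fold change was -0.26 ± 0.06 (SE; adjusted p = 0.025), a call lost without mimic replicate 2 or 3, without control replicate 2 or 3, with a block on the replicate number, and in the cluster with most probe sets (-0.20). Grouped along the route after these values were seen, 6 of 9 genes from aldolase to pyruvate kinase fell, and 1 of 6 from hexokinase to phosphofructokinase. These shares were 66.7% and 16.7%, beside 5.64% of all genes and 9.79% of the brighter part of the array. The split was made with the values in view, so no pattern along the route is read from it.

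**Figure D2:**
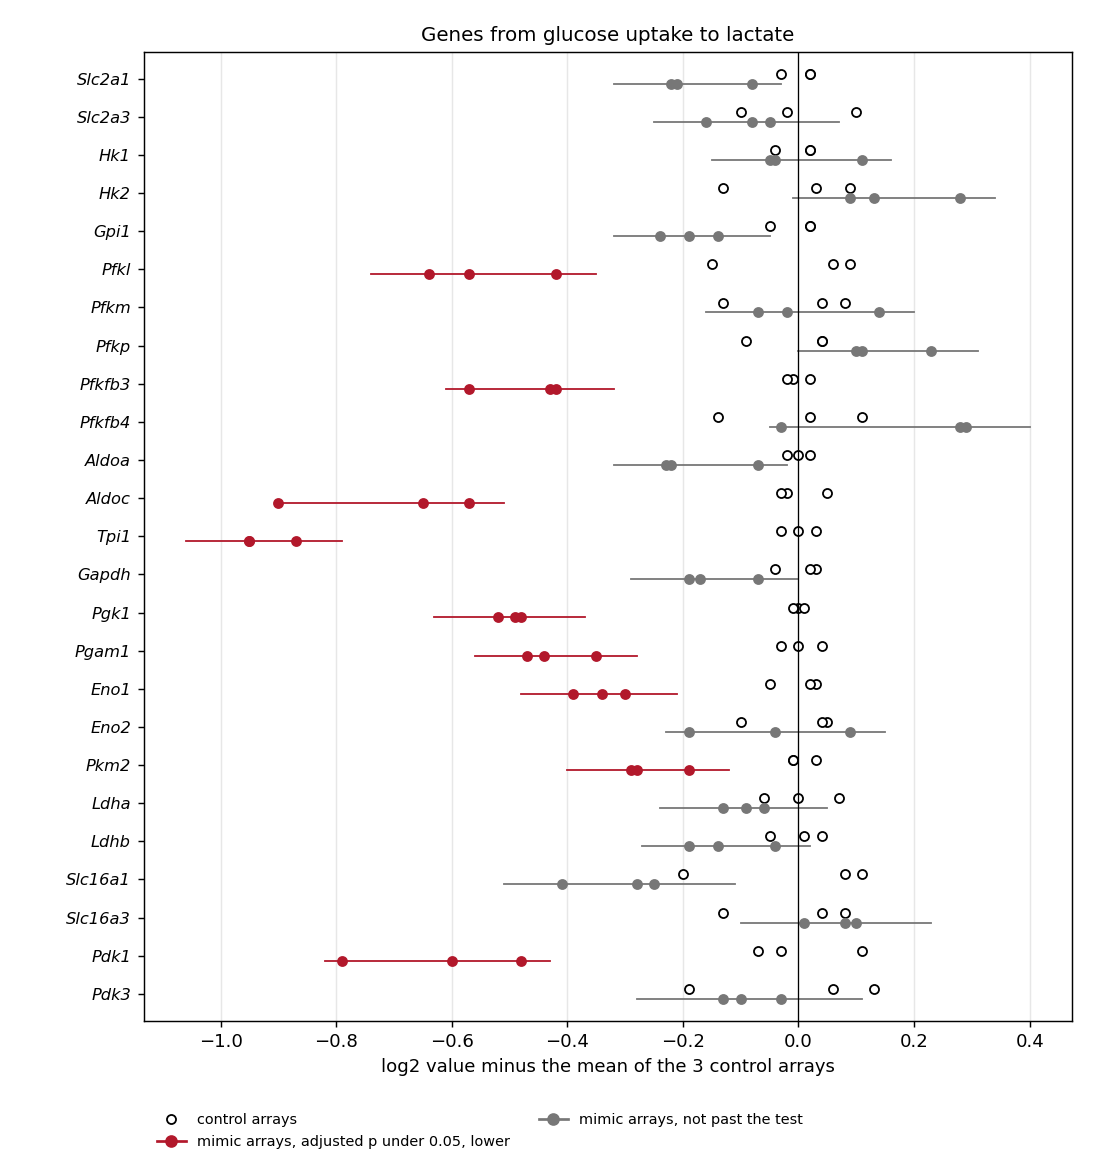
Log2 value of each array minus the mean of the 3 control arrays (horizontal axis) for the 25 members from glucose uptake to lactate, in pathway order. Open circles are control arrays, filled circles are mimic arrays, and lines are the 95% interval of the log2 fold change. The 9 genes in red fell, with Tpi1 the farthest to the left.

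The genes that handle pyruvate and lactate fell in 1 of 6 cases. Pdk1, a kinase that shuts pyruvate out of the mitochondrial dehydrogenase, read 8.66, 8.35 and 8.54 with the mimic and 9.11, 9.25 and 9.07 with the control. The groups were apart, with a log2 fold change of -0.63 ± 0.09 (SE; adjusted p = 0.0019). Its relative Pdk3 gave 8.98, 9.01 and 9.08 against 8.92, 9.24 and 9.17, which overlap (log2 fold change -0.09). Ldha, the lactate dehydrogenase subunit that low oxygen induces, read 13.06, 12.99 and 13.03 against 13.06, 13.12 and 13.19. That is a log2 fold change of -0.10 with a 95% interval of -0.24 to 0.05, so a change of the size seen for Pgk1 or Tpi1 lies outside the interval. Ldhb, the heart-type subunit, was dim (log2 fold change -0.12, adjusted p = 0.30). Slc16a1, which carries lactate and pyruvate across the membrane, read 8.25, 8.09 and 8.22 against 8.30, 8.61 and 8.58. It just missed the threshold (log2 fold change -0.31, adjusted p = 0.053) and passed in 6 alternatives, among them the fit without control replicate 1, the lowest control array (-0.41, adjusted p = 0.011). Slc16a3, the lactate exporter of glycolytic cells, had a log2 fold change of 0.06 (adjusted p = 0.67).

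Among the 5 genes of oxygen sensing, 2 fell and 0 rose. Epas1, the alpha subunit also called HIF2A, read 8.33, 7.99 and 8.17 with the mimic and 8.60, 8.76 and 8.69 with the control. All mimic arrays were lower, with a log2 fold change of -0.52 ± 0.09 (SE; adjusted p = 0.0054). Hif1a, the alpha subunit found in most cells, gave 11.85, 11.97 and 12.04 against 11.87, 11.90 and 11.91, a log2 fold change of 0.06 with a 95% interval of -0.09 to 0.21. Vhl, the substrate receptor of the ligase that removes these subunits, read 8.37, 8.21 and 8.23 against 8.62, 8.49 and 8.53. Its log2 fold change was -0.28 (adjusted p = 0.031), and the call was lost when mimic array 2 or 3 or control array 1 or 3 was left out. The prolyl hydroxylase genes Egln1 and Egln3 had log2 fold changes of 0.02 (adjusted p = 0.87) and 0.09 (0.58), and their groups overlapped. Protein levels and hydroxylation, through which this pathway mainly acts, were not measured.

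Of the 14 other hypoxia targets, 4 fell, 1 rose and 9 did not pass. Ak4, a mitochondrial adenylate kinase, read 7.87, 7.80 and 7.98 with the mimic and 9.30, 9.48 and 9.44 with the control (transcript cluster 10472923). Its ratio of 0.348 was the lowest of all members, a log2 fold change of -1.52 ± 0.08 (SE; adjusted p = 8.1e-06). Bnip3, a mitophagy receptor of the outer mitochondrial membrane, read 10.20, 10.25 and 10.35 against 11.15, 11.27 and 11.21, a log2 fold change of -0.95 ± 0.07 (adjusted p = 7.3e-05). Its relative Bnip3l, also called Nix, read 12.22, 12.20 and 12.23 against 12.62, 12.58 and 12.55. Both mitophagy receptor genes were thus lower on every mimic array, Bnip3l by a log2 fold change of -0.37 (adjusted p = 0.0037). P4ha1, a catalytic subunit of the prolyl hydroxylase that matures collagen, read 11.34, 11.40 and 11.35 against 11.63, 11.72 and 11.69. Its log2 fold change of -0.32 had an adjusted p of 0.0089, and 0.051 without control replicate 3. The alternative subunit gene P4ha2 gave 10.48, 10.10 and 10.20 against 10.12, 10.17 and 10.15, with mimic replicate 1 above all other arrays (log2 fold change 0.11).

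Ddit4, which restrains the growth kinase mTOR under stress, was the member that rose. It read 8.34, 8.41 and 8.39 with the mimic and 8.25, 7.93 and 8.04 with the control, a log2 fold change of 0.31 ± 0.08 (SE; adjusted p = 0.043). The groups were separated by a small gap, and the call held without control replicate 1 but not without any other array, nor after quantile normalization or with a block on the replicate number. The vessel growth factor gene Vegfa gave 9.82, 9.57 and 9.61 against 9.66, 9.64 and 9.68, a log2 fold change of 0.01 with a 95% interval of -0.17 to 0.18. Adm, the gene of the vasodilator adrenomedullin, was dim, with a mean log2 value below 6, and its groups overlapped (log2 fold change -0.16). Kdm3a, a histone demethylase that itself needs oxygen, had mimic arrays wholly below the control arrays but an adjusted p of 0.069 (log2 fold change -0.21). Ndrg1, a stress-response gene, had a log2 fold change of -0.21 (adjusted p = 0.17), and -0.30 (adjusted p = 0.040) without mimic replicate 1. The remaining targets had groups that overlapped in the cluster used. Log2 fold changes were -0.07 for Ankrd37, -0.07 for Higd1a, which encodes a mitochondrial inner membrane protein, 0.10 for Mxi1, an antagonist of Myc, and -0.09 for Bhlhe40, a transcriptional repressor of the clock, with adjusted p from 0.44 (Bhlhe40) to 0.64 (Higd1a).

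**Figure D3:**
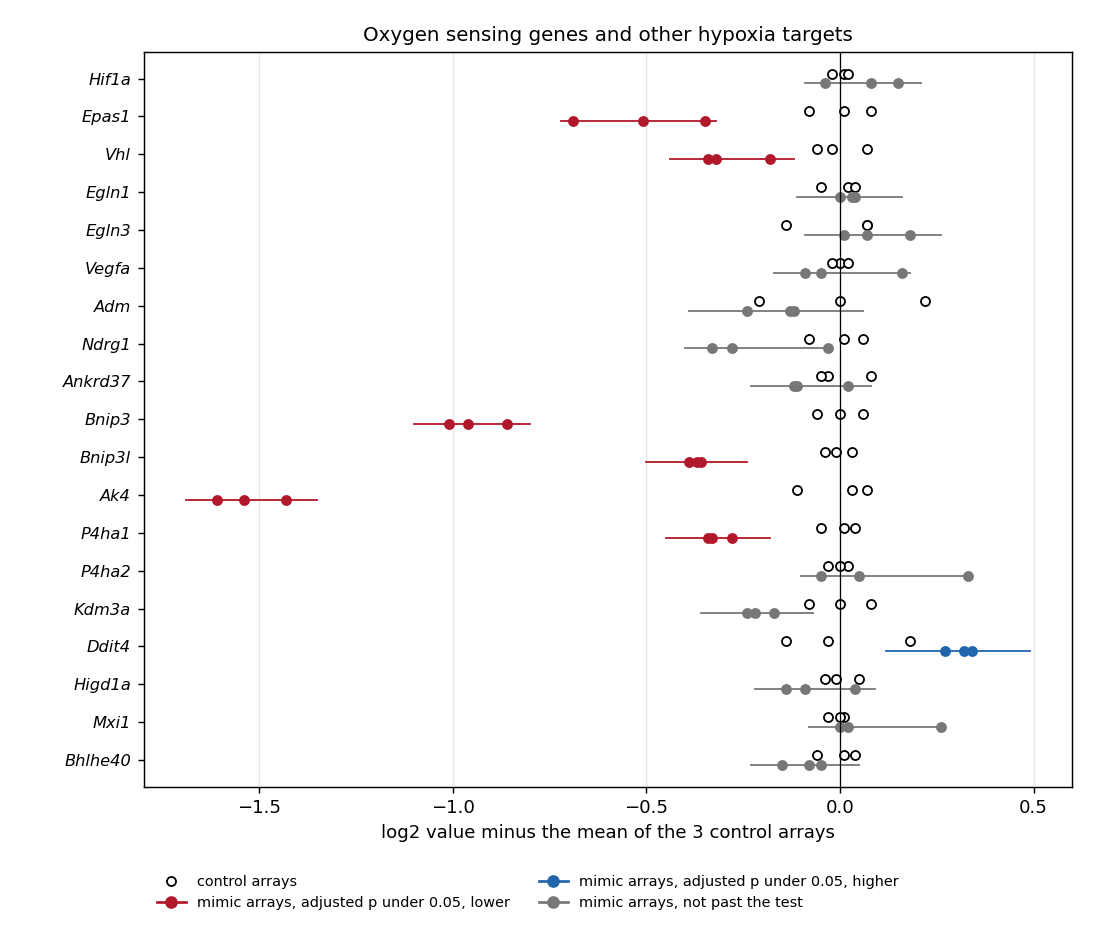
Log2 value of each array minus the mean of the 3 control arrays (horizontal axis) for the 5 oxygen sensing genes, listed first, and the 14 other hypoxia targets. Symbols are open circles for control arrays and filled circles for mimic arrays, with the 95% interval of the log2 fold change as a line. Ak4 and Bnip3 lie farthest to the left, and Hif1a and Vegfa straddle the control values.

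Set side by side, the glucose-to-lactate genes and the other hypoxia targets gave like summaries. Of the former 9 of 25 fell (36.0%) and 0 rose, with a median log2 fold change of -0.17 and a range from -0.92 to 0.18. Of the latter 4 of 14 fell (28.6%) and 1 rose, with a median of -0.13 and a range from -1.52 to 0.31. Groups lay wholly apart in the lower direction for 14 of 25 and 5 of 14 genes. These shares were not tested against each other, and no difference between enzyme steps and other targets is claimed. Each set held genes with clear falls and genes whose interval spans 0. The calls of textbook targets differed: Pgk1, Pdk1, Aldoc and Bnip3 fell, whereas Ldha, Slc2a1 and Vegfa did not pass. Not passing is no proof of an unchanged level, and the mimic arrays of Slc2a1 lay wholly below its control arrays.

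Close relatives were compared within each array, where a difference in overall array brightness cancels. After the values were seen, 14 pairs of related members were formed, and for each the log2 value of the first minus that of its relative was taken per array. In 11 of the 14 pairs the mimic and control arrays did not overlap in this difference. No pairs of other genes were set beside them and the pairs were picked with the values in view, so the count describes these pairs only. The exact two-sided permutation test of 3 against 3 arrays cannot give a p below 0.10, which these 11 pairs reached (0.13 after Benjamini-Hochberg adjustment over 14), so none passed 0.05. Pfkl minus Pfkm was -0.33, -0.34 and -0.33 on the mimic arrays and 0.21, 0.21 and 0.28 on the control arrays, a shift of -0.56. The spread of this difference was smaller than that of either gene alone. Pfkl shifted against Pfkp by -0.70, Aldoc against Aldoa by -0.54, Eno1 against Eno2 by -0.30 and Pdk1 against Pdk3 by -0.54. Outside glycolysis the shifts were -0.58 for Epas1 against Hif1a, -0.58 for Bnip3 against Bnip3l and -0.43 for P4ha1 against P4ha2. The 3 pairs that overlapped were Slc2a1 with Slc2a3, Ldha with Ldhb and Egln1 with Egln3.

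Several members are read by more than 1 transcript cluster. This held for 13 members with 41 clusters, and a further 2 clusters carried a member's symbol (Ankrd37 or Eno1) beside that of another gene and were not used. Gapdh alone had 15 clusters, with log2 fold changes from -0.16 to -0.12. The clusters of 1 gene can read RNA of the same locus, so they are not separate measurements. For Tpi1 the other cluster gave -0.86, for Bnip3 -0.89, and for Pgk1 the 3 clusters all gave -0.50. Eno1 gave -0.35 and -0.29, Pgam1 from -0.52 to -0.42, Bnip3l -0.37 and -0.44, and Gpi1 -0.18 (7 probe sets) and -0.23 (1 probe set, adjusted p = 0.032). The cluster used holds only 1 probe set for Ak4, Bnip3, Bnip3l, Eno1, Pkm2 and Mxi1, while their other clusters hold 4, 6, 8, 5, 7 and 14. Cluster positions were not used here, so whether such a cluster reads the gene itself or a copy of it was not tested, and this touches 5 of the 15 falls. Nor was it tested for Pgk1 and Pgam1, where a second cluster had the same means as the cluster used. These were 12.19 with the mimic and 12.69 with the control for Pgk1, and 10.52 and 10.94 for Pgam1. The larger cluster of Ak4 gave -1.16. Over all clusters as tests, the larger clusters of Ak4, Bnip3, Bnip3l and Eno1 also fell (adjusted p = 0.0016, 0.00018, 0.0016 and 0.037), and that of Pkm2 did not pass (0.11). For Higd1a the calls differed: the cluster used gave -0.07, and the other -0.32 with an adjusted p of 0.033, both with 3 probe sets. All 6 of its probe sets were lower in the authors' deposited table, at a median ratio of 0.741. Mxi1 gave 0.10 and 0.09, Ldhb -0.12 and -0.18, and Pkm2 -0.26 and -0.20.

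The authors' deposited table holds exon-level ratios of mimic to control, with an unadjusted p for each probe set. Which arrays entered it is not stated. Of the 552 probe sets of members, 136 were lower with p under 0.05 (24.6%) and 8 were higher (1.45%) in the authors' deposited table, against 6.44% and 5.51% of all 241419 probe sets. Probe sets of a gene share their RNA and are no replicates. Several genes had all their probe sets lower, counted over all clusters of the symbol, some of which repeat the same value. For Pgk1, log2 ratios of -1.171, -0.366 and -0.560 each occur more than once in the authors' deposited table. Those of -0.366 and -0.560 have p under 0.05, so both counts given below for Pgk1 include repeats. In the authors' deposited table all 6 probe sets of Tpi1 and all 7 of Bnip3 were lower with p under 0.05. Lower ratios were found there for all 20 probe sets of Pfkl (12 with p under 0.05), 19 of Pgk1 (14) and 13 of Pdk1 (8). Epas1 had 18 of 19 probe sets lower in the authors' deposited table, 10 of them with p under 0.05, and Hif1a had 16 of 18 higher, 2 of them with p under 0.05. For Pfkfb3, 18 of 20 probe sets were lower in the authors' deposited table, 10 of them with p under 0.05, at ratios from 0.292 to 1.63. Ak4 had 4 of 5 lower with p under 0.05, at ratios down to 0.10, and the fifth at 1.08 in the authors' deposited table. Genes that did not pass by cluster could still hold such probe sets: in the authors' deposited table, 7 of 19 for Ndrg1, 7 of 28 for Kdm3a and 0 of 7 for Ldha were lower with p under 0.05.

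**Figure D4:**
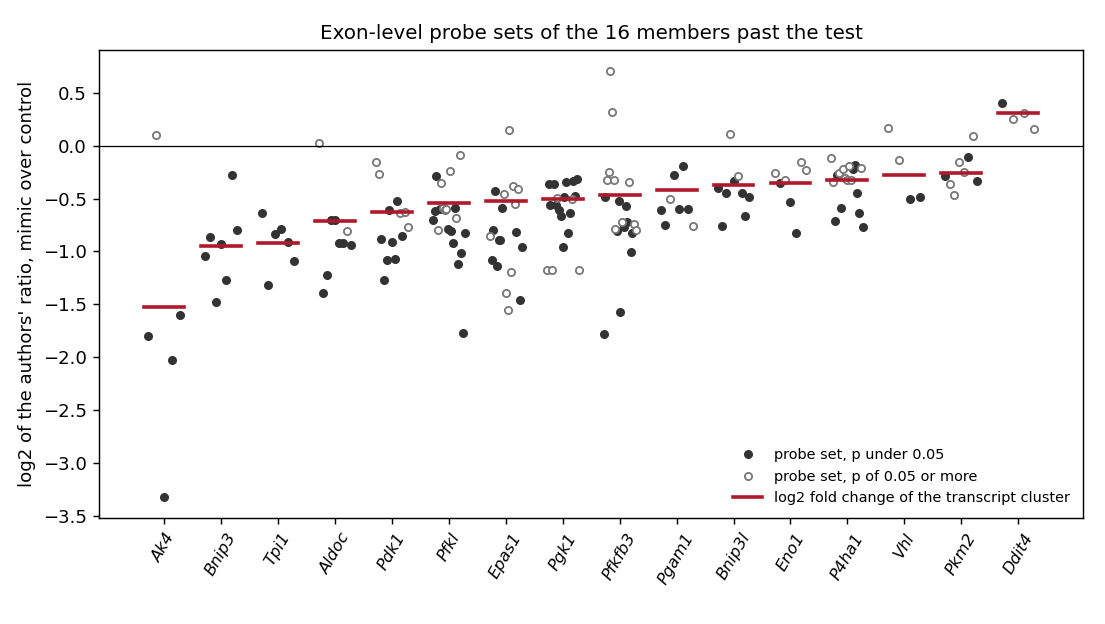
Log2 of the authors' deposited ratio (mimic over control, vertical axis) for each exon-level probe set of the 16 members past the test, ordered by the log2 fold change of their transcript cluster (red bar). Filled circles have an unadjusted p under 0.05 in that table. All probe sets of Tpi1, Bnip3, Pfkl, Pgk1 and Pdk1 lie below 0, and those of Ddit4 lie above it.

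Differences between arrays of a group ran through the members. Mimic replicate 1 was the highest of the 3 mimic arrays in 30 of 44 members (68.2%), against 48.7% of all genes, and control replicate 1 was the lowest control array in 26 (59.1%), against 38.0%. Where a gene was lower with the mimic, both bring the groups closer together. The number of members that fell was 16 without mimic replicate 1 and likewise 16 without control replicate 1. The count was lowest, 12, without control replicate 3. Of the 16 members past the test, 12 passed in every fit that left out 1 array, the exceptions being Pkm2, Vhl, P4ha1 and Ddit4.

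The cells carried markers of the ovarian surface or mesothelium, of which 11 of 12 were in the brighter part of the array. Of these 12, 4 fell (Upk3b, Lrrn4, Wt1 and Krt7) and 3 rose (Krt8, Krt18 and Krt19), and their summed level on the log2 scale was 13.61 to 13.72 with the mimic and 13.75 on each control array. Of 10 fibroblast markers 8 were in that part, 2 fell and 1 rose, with a summed level of 14.73 to 14.75 against 14.83 to 14.85. It held 0 of 6 endothelial, 1 of 6 leukocyte, 2 of 8 granulosa cell and 1 of 3 red cell markers. Of these, 2 granulosa cell markers (Inhbb, log2 fold change -0.63, and Fst, -0.50) and 1 endothelial marker (Tek, -0.52) fell, and no leukocyte or red cell marker passed the test. Their summed levels were 8.69 to 8.83 against 8.82 to 8.84 for endothelial, 9.35 to 9.41 against 9.22 to 9.35 for leukocyte, 9.51 to 9.61 against 9.86 to 9.90 for granulosa cell and 8.17 to 8.20 against 8.07 to 8.30 for red cell markers. The shares that fell were 33.3% of ovarian surface or mesothelial, 20% of fibroblast, 25% of granulosa cell and 16.7% of endothelial markers. Beside them stood 34.1% of the members, 5.64% of all genes and 9.79% of the brighter part of the array. Rises made up 6.08% of all genes and 9.43% of that part. Whether a shift in cell state plays a part in the results above was not tested, and in bulk RNA fewer cells of a type and less RNA per cell cannot be told apart.

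The promoters of the members were searched for the core motif that hypoxia-inducible factor binds. RefSeq promoter windows (GRCm38.p6, 250 bases before to 50 after a start) matched 39 of the 44 members by symbol, with 60 windows, since a gene can have several that overlap. The letters ACGTG and GCGTG were searched on both strands, and the palindrome CACGTG, which other factors also bind, counts as a match on each strand. At least 1 match lay in 47 of 60 windows of members (78.3%), against 51.5% of windows of the genes tested. The motif holds a CG step, and windows of members had a median of 23 CG dinucleotides, against 14 over the genes tested. By gene, 11 of 13 members that fell and 23 of 25 that did not pass had a match, which leaves little room for a difference. At least 2 matches lay in 15 of 22 windows of members that fell (68.2%), in 19 of 37 of those that did not pass (51.4%) and in 26.2% of windows of the genes tested. Windows of a gene can overlap, and these shares were not tested against each other. A match is a description of the letters and no proof of binding.

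The windows below belong to the 3 members with the largest falls and to the member that rose, with matches in capitals. Ak4 (chr4:101419039-101419338, plus strand, the first of its 4 windows) held 2 matches, Bnip3 (chr7:138909457-138909756, minus strand) 5, Tpi1 (chr6:124814109-124814408, minus strand) 0, and Ddit4 (chr10:59951721-59952020, minus strand) 2.
Ak4: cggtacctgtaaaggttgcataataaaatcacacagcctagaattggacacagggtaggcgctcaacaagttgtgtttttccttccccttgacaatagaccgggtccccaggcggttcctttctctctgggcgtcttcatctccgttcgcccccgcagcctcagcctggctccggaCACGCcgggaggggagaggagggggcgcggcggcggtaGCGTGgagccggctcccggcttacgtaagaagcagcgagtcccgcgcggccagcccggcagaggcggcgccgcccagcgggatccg
Bnip3: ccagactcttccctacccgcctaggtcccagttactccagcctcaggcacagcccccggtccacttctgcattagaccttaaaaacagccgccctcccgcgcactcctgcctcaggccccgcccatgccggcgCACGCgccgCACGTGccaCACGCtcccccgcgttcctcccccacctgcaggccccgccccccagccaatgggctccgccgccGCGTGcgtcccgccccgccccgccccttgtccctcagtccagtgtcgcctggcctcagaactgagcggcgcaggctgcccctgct
Tpi1: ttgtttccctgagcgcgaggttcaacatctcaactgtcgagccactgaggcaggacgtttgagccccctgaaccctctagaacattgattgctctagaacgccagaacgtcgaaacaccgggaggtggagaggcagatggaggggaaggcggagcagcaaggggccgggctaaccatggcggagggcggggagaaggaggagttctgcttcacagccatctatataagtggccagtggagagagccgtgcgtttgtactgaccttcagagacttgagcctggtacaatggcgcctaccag
Ddit4: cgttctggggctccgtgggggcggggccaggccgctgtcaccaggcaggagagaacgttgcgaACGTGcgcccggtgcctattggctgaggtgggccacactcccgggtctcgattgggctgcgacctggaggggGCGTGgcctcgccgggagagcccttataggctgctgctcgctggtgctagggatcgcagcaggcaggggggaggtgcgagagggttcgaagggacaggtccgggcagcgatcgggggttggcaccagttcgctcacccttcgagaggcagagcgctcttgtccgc
The other 3 windows of Ak4 hold 2, 2 and 3 matches. Matches thus occur beside the member that rose as well as beside members that fell, and Tpi1 holds none in this window.

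The rest of the sugar pathway was read from further lists, likewise chosen with earlier results of these data known. Of 32 other genes of glycolysis and its side routes, 1 fell and 1 rose, and 14 were in the brighter part of the array. The gene that fell was the muscle mutase gene Pgam2, at a mean log2 value of 7.16 ± 0.108 on mimic arrays and 7.64 ± 0.138 on control arrays (SD, n = 3; limma adjusted p = 0.0068). The gene that rose was Pgam5, a mitochondrial phosphatase of the mutase family rather than a glycolytic enzyme (0.46). Of 10 genes of the pentose phosphate pathway, Tkt, transketolase, fell (log2 fold change -0.59, adjusted p = 0.0015) and 9 did not pass. Of 13 genes of pyruvate entry into mitochondria, 2 fell and 1 rose. The shares that fell were thus 3.12%, 10% and 15.4%, in the order given, beside 5.64% of all genes and 9.79% of the brighter part. Rises made up 6.08% of all genes and 9.43% of that part. With counts this small, no result for a list as a whole is read from them. Pdk4, another pyruvate dehydrogenase kinase, rose by 0.40 on the log2 scale, and the phosphatase gene Pdp2 and the carboxylase gene Pcx had log2 fold changes of -0.34 each. Pdk1 and Pdk4, which act on the same enzyme complex, thus changed in opposite directions, each with mimic and control arrays wholly apart.

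Further oxygen sensing and hypoxia genes were mixed in direction. Of 14 more genes of oxygen sensing, 1 rose and 0 fell in the limma fit. Over all genes tested 6.08% rose and 5.64% fell, and in the brighter part of the array 9.43% and 9.79%. No result for this list as a whole is read from 1 gene. The riser was Hif1an, the asparaginyl hydroxylase that blocks the factor's coactivator binding (log2 fold change 0.33, adjusted p = 0.042). Of 40 further hypoxia targets, 9 fell (22.5%) and 5 rose, with a median log2 fold change of -0.09. The share that fell was above both background figures for falls, in a list chosen with earlier results of these data known. Edn1, the endothelin precursor gene, had a log2 fold change of -1.47 and Fam162a, a mitochondrial protein gene, of -0.61 (from 12.03 ± 0.022 to 11.42 ± 0.14, SD, n = 3). The genes named from this list are the 6 with the smallest adjusted p, so most of the 9 falls are not named. Several known targets went the other way. Car12, a carbonic anhydrase, rose by a log2 of 0.65, Hilpda, a lipid droplet protein gene, by 0.63, and Tfrc, the transferrin receptor gene, by 0.50. Tet1, a DNA demethylase, rose by 0.45, in a cluster of only 1 probe set.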

How the data were processed

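RNA of 6 samples (3 arrays per group) was amplified and biotinylated for a whole-transcript mouse array, per the labels' protocols. For 35556 transcript clusters the authors deposited processed log2 values. Tools listed in the submitters' processing notes, without version or role, are Partek, Affymetrix Expression Console, MAS5 and RMA. The annotation's genome build was not given in the sources used here. No detection call came with the values. The authors' deposited table of 241419 exon-level probe sets gives a linear ratio and an unadjusted p-value, per the file headers, and which arrays entered it is not stated.

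A cluster was named from the probe sets whose IDs lie between its ID and the next. Over 17009 clusters with at least 4 probe sets, the cluster's fold change and that of its own probe sets had r = 0.936 (across genes, which are not independent replicates), against 0.0987 for the next interval's probe sets. Symbols were updated through RefSeq accessions, which gave 21158 genes. The fit was limma 3.58.1 in R 4.3.3 (lmFit, eBayes) on the deposited log2 values of all genes, with no filter or block and with Benjamini-Hochberg adjustment at 0.05. The members and lists were chosen with earlier results of these data known. All members are named, and of a further list those past the test, up to the 6 with the smallest adjusted p. Further genes named for their small counts, and the pairs of relatives, were chosen after their values were seen. The fit was checked on artificial data with known changes. Alternatives were leaving out each array, a variance trend, other ways to choose a cluster, filters on dim genes, a block on the replicate number, and median centring or quantile normalization. Promoter and microRNA sequences are from RefSeq (GRCm38.p6).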

Additional observations from a re-analysis of the deposited data

How the results depend on the processing

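The number of members that fell, 15, lay between 12 and 21 over the alternatives, and no member past the test changed sign in any of them. With a trend of the prior variance 14 glucose-to-lactate members fell instead of 9. Over the alternatives 7 members that had not passed (Slc2a1, Gpi1, Aldoa, Gapdh, Slc16a1, Ndrg1 and Kdm3a) passed in at least 1. The single rise was absent (0 members rose) after quantile normalization, with the replicate block and without any 1 array except control replicate 1, so the range over these fits was 0 to 1. The number of all genes changed was 2480, and it was 3229 with a trend of the prior variance and 3026 with quantile normalization. The filters on dim genes, which test fewer genes, gave 2788 and 2943. With 1 array left out the number lay between 1280 (without control replicate 3) and 2060. It was 1547 without mimic replicate 3. The median log2 fold change of the other hypoxia targets, -0.13, was -0.09 under both filters on dim genes, -0.15 with quantile normalization, -0.16 with median centring, -0.18 with the mean of all clusters, and from -0.15 to -0.09 with 1 array left out. The filters remove Adm, which was dim. The causes of the other shifts were not tested. Arrays with the same replicate number did not deviate together over all genes tested (r of -0.054, -0.284 and 0.038). Arrays of different numbers had r from -0.299 to 0.331, so the numbers do not pair the arrays. With the replicate block 14 members fell (Pkm2 and the rise of Ddit4 were lost) and 1729 genes changed. Signal limits what can be said of dim genes, and no detection call allows a floor to be set.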
